A study of Homo sapiens with 15 samples.

Results

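The 39 HOX cluster genes were described in 15 RNA sequencing libraries whose labels name MDA-MB231, an established line of human breast cancer cells that is triple-negative and mesenchymal in character. The genes were chosen by name, as every symbol made of HOX, a cluster letter from A to D and a number. All 39 were among the 60651 genes of the count table, which holds the depletion libraries, and 38 were among the 23792 genes of the FPM table (fragments of a gene, scaled to the same library total), which holds the overexpression libraries. HOXB1 was not listed in the second table, so it has no value there. The depletion dataset has 3 libraries each of CTRL (labelled WT), SG1 and SG3 (both labelled KIF20A knockdown), and the overexpression dataset has 3 libraries each of EV (labelled WT) and KIF20A_OE (labelled KIF20A overexpression). KIF20A encodes a mitotic kinesin needed for cell division. The labels do not say whether libraries of a group came from separate cultures or clones, nor what SG1, SG3 and EV stand for, so p-values measure the spread between these libraries, which may be technical.

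HOX genes encode homeodomain transcription factors that give cells of the embryo their position along the head-to-tail axis and along the limbs. Within a cluster the genes lie in the order in which they act, from low paralog numbers at the 3' end, which pattern anterior structures, to high numbers at the 5' end, which pattern posterior structures. Polycomb complexes hold clusters silent and trithorax (MLL) complexes keep them active, and adult cells keep part of the pattern as a positional memory of their tissue of origin.

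In GRCh38 (GENCODE release 29) the 11 HOXA genes span chromosome 7 from 27092993 to 27200106 on the minus strand, and the 10 HOXB genes span chromosome 17 from 48528526 to 48729178 on the minus strand. The 9 HOXC genes span chromosome 12 from 53938765 to 54056030 and the 9 HOXD genes span chromosome 2 from 176092891 to 176190907, both on the plus strand. The exons of 25 of the 39 genes overlap exons of another gene, on the same strand for 18 and on the opposite strand for 19. The strand setting of the counting was not stated in the labels, so the values of pairs on opposite strands cannot be fully told apart. Pairs on the same strand cannot be told apart by strand under any setting. What the overlaps do to the levels of these genes was not tested. HOXD1 shares 1147 of its 1975 exon bases with the antisense RNA HAGLR, HOXD4 shares 1178 of 1464, HOXD3 2206 of 3548 and HOXC5 1692 of 1805 with genes of the same strand.

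The promoters of 3 genes are shown because they stand for the patterns described after them: HOXD13, with no fragment in any EV library and the highest level in KIF20A_OE among such members, HOXD1, the member with the opposite direction, and HOXA13, detected in all 15 libraries. Each is 300 bases of RefSeq (GRCh38.p14), from 250 bases before the transcript start to 50 after it, on the strand of the gene, with every CG dinucleotide in capitals. They lie at chr2:176092471-176092770 (plus strand) for HOXD13, chr2:176188418-176188717 (plus strand) for HOXD1 and chr7:27200042-27200341 (minus strand) for HOXA13.
HOXD13: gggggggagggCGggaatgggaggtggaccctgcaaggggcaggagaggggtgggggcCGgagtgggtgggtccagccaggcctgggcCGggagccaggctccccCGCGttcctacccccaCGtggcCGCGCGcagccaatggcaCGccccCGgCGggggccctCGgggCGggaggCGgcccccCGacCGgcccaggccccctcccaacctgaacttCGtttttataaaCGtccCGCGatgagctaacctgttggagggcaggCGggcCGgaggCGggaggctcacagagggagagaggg
HOXD1: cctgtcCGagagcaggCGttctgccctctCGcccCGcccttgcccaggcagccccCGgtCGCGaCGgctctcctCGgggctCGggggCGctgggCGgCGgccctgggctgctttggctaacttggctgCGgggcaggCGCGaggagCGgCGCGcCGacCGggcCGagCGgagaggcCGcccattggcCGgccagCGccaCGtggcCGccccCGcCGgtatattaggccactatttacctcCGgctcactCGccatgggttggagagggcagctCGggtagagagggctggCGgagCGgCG
HOXA13: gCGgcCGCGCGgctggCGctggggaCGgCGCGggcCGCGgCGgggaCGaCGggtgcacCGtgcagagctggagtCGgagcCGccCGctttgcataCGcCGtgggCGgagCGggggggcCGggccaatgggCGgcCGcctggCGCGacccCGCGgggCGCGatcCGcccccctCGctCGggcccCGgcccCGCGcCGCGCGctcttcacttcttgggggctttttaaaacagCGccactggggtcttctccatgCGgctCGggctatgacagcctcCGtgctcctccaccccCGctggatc
The capitals mark 24 CG dinucleotides in HOXD13, 36 in HOXD1 and 44 in HOXA13. The TATAAA motif, searched on both strands, is in the HOXD13 promoter and in neither of the other two, while CCAAT, searched likewise, is in all 3. The RefSeq table held promoters for 20 of the 39 genes, 27 promoters in all. Their median was 22 CG dinucleotides and an observed-to-expected CG ratio of 0.849, against 14 and 0.579 over all 35116 promoters of the table. CCAAT was in 66.7% of the HOX promoters and 34.6% of all, and TATAAA in 18.5% and 11.5%. These are descriptions of the letters in the window and say nothing of which factors bind.

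Library totals were 40895819 to 51018667 counts in the depletion dataset and 15971297 to 22182293 fragments in the overexpression dataset. A count of 0 allows up to 3 counts, which is 0.0588 to 0.0734 CPM (counts scaled to library size) and 0.135 to 0.188 FPM, counting error only. KIF20A itself was 154, 171 and 160.2 CPM in CTRL, 123, 147 and 91.5 CPM in SG1 and 86.3, 60.8 and 79.1 CPM in SG3. It was 101, 143 and 124 FPM in EV and 1348, 269 and 896 FPM in KIF20A_OE. All SG1 and SG3 libraries were below all CTRL libraries and all KIF20A_OE libraries were above all EV libraries, and the second KIF20A_OE library had the lowest KIF20A of its group. Neither difference from CTRL passed the adjusted threshold in edgeR (log2 fold change -1.10 ± 0.178 SE, adjusted p = 0.330 in SG3; -0.42 ± 0.176, adjusted p = 0.913 in SG1).

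The libraries labelled KIF20A_OE went against the labelled cell line, and this stands before every result that uses them. All 6 markers of mesenchymal-like breast cancer lines (VIM, CD44, FN1, CAV1, EGFR and AXL) were lower in KIF20A_OE than in EV in limma (adjusted p under the 0.05 threshold). AXL, a receptor tyrosine kinase, was 967, 1107 and 811 FPM in EV and 0.751, 0.811 and 0.750 FPM in KIF20A_OE. CD44, a hyaluronan receptor, was 788, 615 and 523 FPM in EV and 0.125, 0.316 and 1.23 FPM in KIF20A_OE. In sum the 6 markers were at 6739 to 7750 FPM in EV, 420.5 to 859.5 FPM in KIF20A_OE and 5136 to 6347 CPM in the depletion libraries. CDKN2A and its neighbour MTAP, chosen after their values were seen, had no count in any CTRL, SG1, SG3 or EV library, and were at 276, 336 and 353 FPM and 22.7, 24.6 and 22.6 FPM in KIF20A_OE. Over all genes tested 46.2% were called higher and 23.4% lower in KIF20A_OE. Of 10 luminal markers 2 were higher and 5 lower in KIF20A_OE, with sums of 1112 to 1327 FPM in EV and 450.7 to 550.9 FPM in KIF20A_OE and PGR listed at 0 in EV. Of 10 fibroblast markers 8 were listed, 3 were higher and 2 lower, with sums of 28.7 to 102 FPM in EV and 83.5 to 107 FPM in KIF20A_OE, where COL1A2 was listed at 0. Of 9 leukocyte markers 6 were listed, 1 was higher and 1 lower, with sums of 5.22 to 9.82 FPM in EV and 4.28 to 4.78 FPM in KIF20A_OE, where PTPRC was listed at 0. All 3 KIF20A_OE libraries and no EV library carried these values, so the labelled overexpression and whatever else sets these libraries apart cannot be told apart in any HOX result below. Nor can RNA per cell and the number of cells of a type in bulk samples.

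In the CTRL libraries 5 of the 39 HOX genes reached a mean of 1 CPM, and they came from 3 of the 4 clusters. They were HOXA13 of the A cluster, HOXB3 and HOXB9 of the B cluster, and HOXD3 and HOXD4 of the D cluster, with no gene of the C cluster. HOXB9, which patterns the trunk and is a paralog of HOXA9, HOXC9 and HOXD9, was the highest at 18.0, 22.2 and 18.0 CPM. HOXD4, an anterior gene of the hindbrain and neck, was at 3.07, 3.04 and 3.03 CPM. HOXA13, the most posterior gene of its cluster and a patterning gene of the digits and the urogenital tract, was at 2.96, 2.33 and 2.47 CPM. HOXB3 was at 3.62, 2.04 and 1.59 CPM and HOXD3 at 1.24, 1.72 and 1.46 CPM, and the other 34 genes were below 1 CPM.

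Per kilobase of exon, which allows genes to be compared, HOXB9 was at 7.53 ± 0.940 CPM per kb in CTRL (mean ± SD, n = 3). HOXD4 followed at 2.08 ± 0.0133 CPM per kb, and the SDs of these leading genes did not meet. HOXA13 (0.508 ± 0.0646), HOXD3 (0.415 ± 0.0685), HOXB7 (0.352 ± 0.0465), HOXD1 (0.339 ± 0.0591) and HOXB3 (0.324 ± 0.143) came next and neighbours among these 5 lay within each other's spread. HOXB9 alone made up 61.8 ± 4.17% of the summed HOX level in CPM, and the HOXB cluster 70.4 ± 1.93% of the summed level per kilobase. The HOXD cluster held 23.6 ± 0.906%, HOXA 4.29 ± 0.820% and HOXC 1.70 ± 1.05%. By position, paralog groups 9 to 13 held 67.7 ± 2.40%, groups 4 to 8 held 23.0 ± 1.80% and groups 1 to 3 held 9.23 ± 1.34%.

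Below 1 CPM, 12 members exceeded 3 counts in at least one depletion library: HOXA3, HOXB2, HOXB4, HOXB7, HOXB8, HOXB13, HOXC4, HOXC6, HOXC8, HOXC9, HOXD1 and HOXD12. Of these HOXB8 reached 0.822 CPM, HOXD1 0.790 CPM, HOXB4 0.671 CPM and HOXB7 0.618 CPM in their highest library. HOXC9 reached 0.433 CPM, HOXC6 0.369 CPM and HOXB2 0.211 CPM. HOXC8 reached 0.164 CPM, HOXB13 0.124 CPM, HOXA3 0.123 CPM, HOXC4 0.114 CPM and HOXD12 0.0952 CPM, so none of the 12 reached 1 CPM in any depletion library. The other 22 members had at most 3 counts in each of the 9 depletion libraries, and 17 of them had none in any. These 22 included 9 of the 11 HOXA genes.

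**Figure D1:**
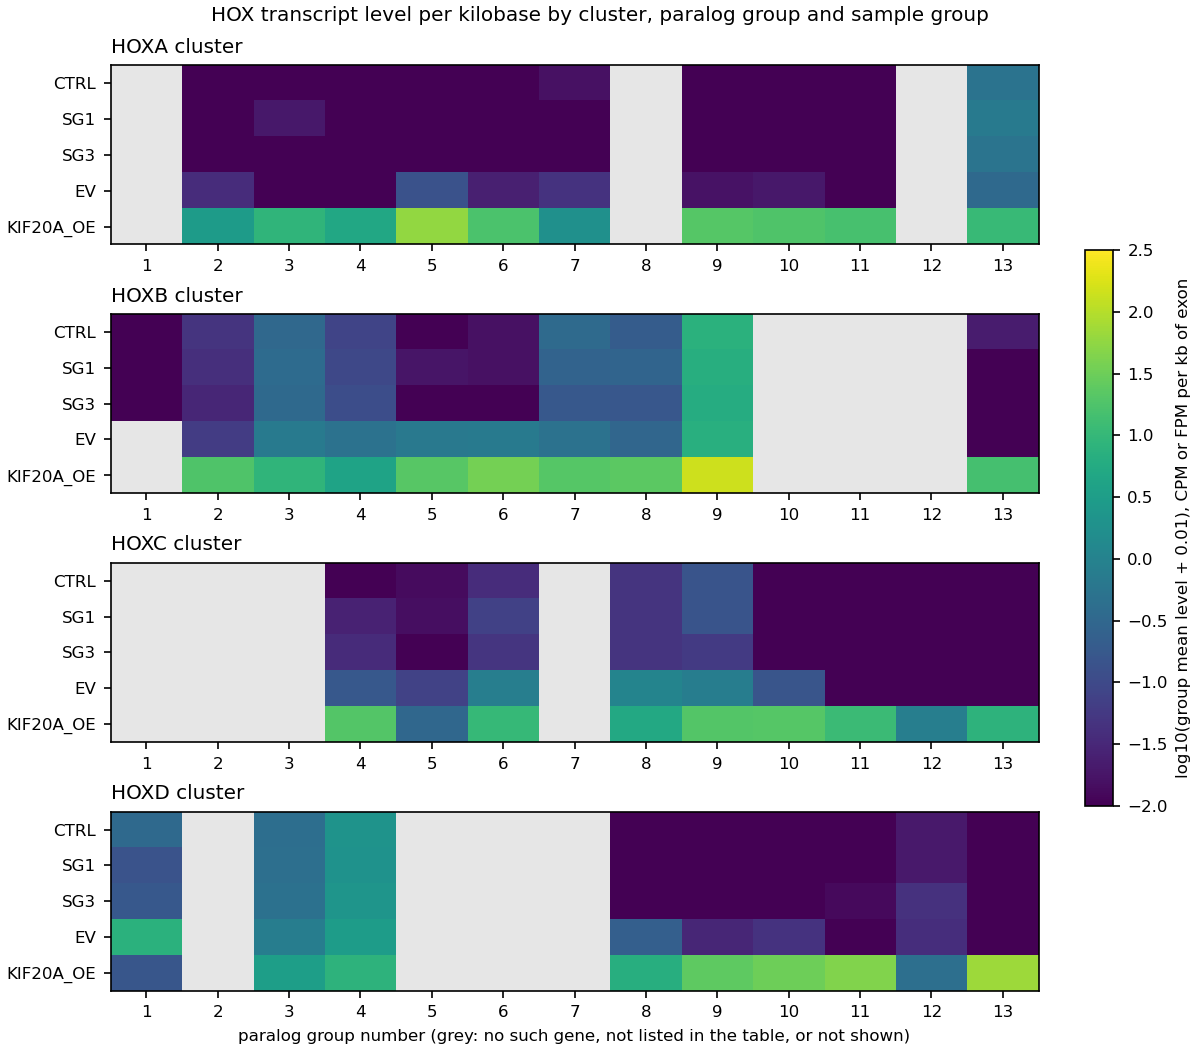
Mean level of each HOX gene per kilobase of exon, as log10(level + 0.01), with paralog group on the x axis and sample group on the y axis, 1 panel per cluster (n = 3 libraries per cell; grey means no such gene, not listed or not shown; CPM in CTRL, SG1 and SG3, FPM in EV and KIF20A_OE, scaled separately). The first 3 rows of each panel are alike, EV is brighter at HOXD1, HOXB4 to HOXB6 and HOXC6 to HOXC9, and KIF20A_OE is bright along whole clusters, with HOXD1, HOXC5 and HOXD12 the darker cells.

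In EV, the WT-labelled group of the overexpression dataset, 12 HOX genes reached a mean of 1 FPM, at least 1 in each cluster. They were HOXA13, HOXB3, HOXB4, HOXB5, HOXB6, HOXB9, HOXC6, HOXC8, HOXC9, HOXD1, HOXD3 and HOXD4, and they include the 5 genes found in CTRL. HOXB9 was at 18.8, 9.91 and 24.6 FPM and HOXD1, an anterior gene at the 3' end of its cluster, at 14.6, 8.07 and 21.9 FPM. Per kilobase HOXD1 stood at 7.52 ± 3.51 and HOXB9 at 6.88 ± 2.86 FPM per kb, closer than their SDs, with HOXD4 next at 3.10 ± 0.495. HOXC8, a gene of the thoracic level, was at 1.08 ± 0.721 FPM per kb and HOXC6, of the upper trunk, at 0.833 ± 0.294. EV libraries differed among themselves: the summed HOX level was 56.2, 39.8 and 88.4 FPM, and HOXB5 was 1.09, 0.0483 and 2.88 FPM and HOXB6 0.762, 0.435 and 4.17 FPM, each highest in the third library.

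The HOXD cluster held 47.3 ± 5.54% of the summed per-kilobase level in EV, HOXB 38.4 ± 6.01%, HOXC 12.1 ± 1.54% and HOXA 2.199 ± 0.196%. Without division by length the order of the leading clusters turned, with HOXB at 45.9% and HOXD at 38.7%. Paralog groups 1 to 3 held 35.3 ± 2.05%, groups 4 to 8 held 32.9 ± 6.54% and groups 9 to 13 held 31.8 ± 4.49%. Within the HOXD cluster the level per kilobase was lower at higher paralog numbers, with a Spearman rho of -0.89 over the 9 genes. This rho runs over neighbouring genes of the same libraries, which are not independent, and has no p.

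Both CTRL and EV are labelled WT in the same cell line, but they were scaled and counted in separate tables, so their values stand side by side with no test. HOXB9 was at 19.4 ± 2.43 CPM in CTRL and 17.7 ± 7.39 FPM in EV, and HOXD4 at 3.04 ± 0.0195 CPM and 4.54 ± 0.724 FPM. HOXD1 was at 0.669 ± 0.117 CPM and 14.9 ± 6.93 FPM, and HAGLR, which overlaps it on the other strand, at 11.8 ± 1.11 CPM and 41.5 ± 9.02 FPM. HOXC6 was at 0.0959 ± 0.0923 CPM and 2.95 ± 1.04 FPM, and HOXB6 at 0.0147 ± 0.0255 CPM and 1.79 ± 2.07 FPM.

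**Figure D2:**
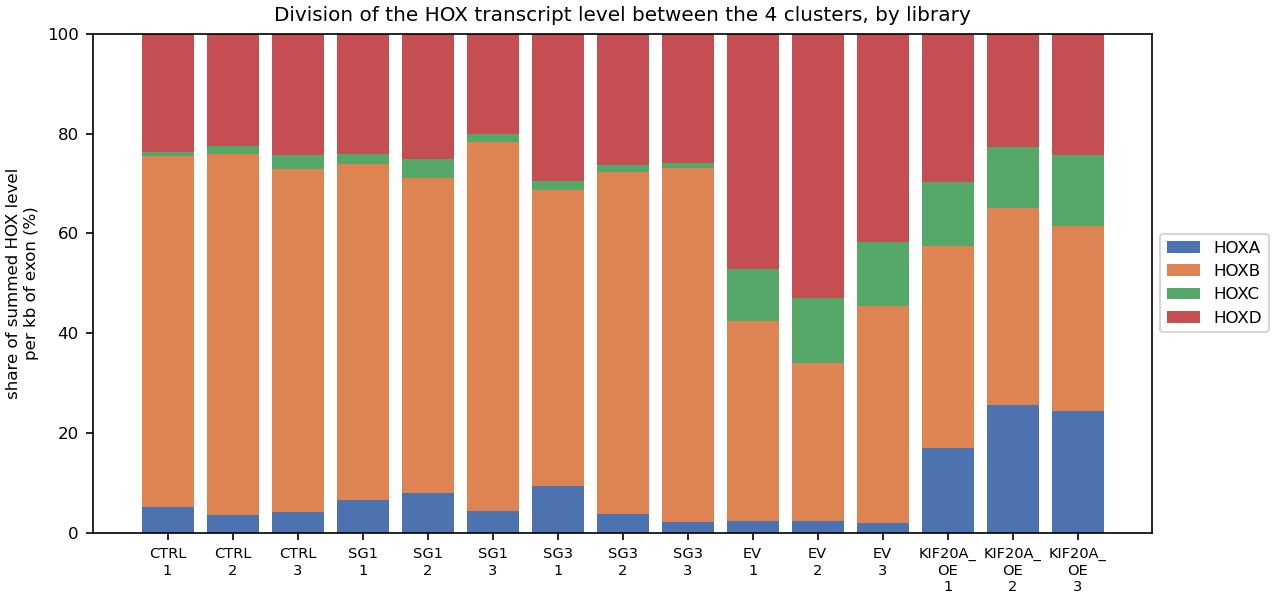
Share of the summed HOX level per kilobase of exon (y axis, percent) held by each of the 4 clusters in each of the 15 libraries (x axis, stacked bars from 0 to 100). HOXB fills most of every CTRL, SG1 and SG3 bar (59.3 to 73.8%), HOXD is largest in 2 of the 3 EV bars, and HOXA reaches 17.1 to 25.6% in the KIF20A_OE bars only.

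The same 5 HOX genes reached a mean of 1 CPM in SG1 and in SG3 as in CTRL. No member passed the adjusted threshold by edgeR, but neither did any other gene tested, KIF20A included, so this does not show that the members were unaltered. The summed HOX level was 31.4 ± 2.32 CPM in CTRL, 30.0 ± 5.81 CPM in SG1 and 27.6 ± 2.56 CPM in SG3. HOXB9 was 15.9, 12.9 and 22.6 CPM in SG1 and 13.8, 18.5 and 15.2 CPM in SG3, both overlapping CTRL. HOXD4 was 2.91, 2.602 and 3.09 CPM in SG1 and 3.47, 3.34 and 2.72 CPM in SG3, and its log2 fold changes against CTRL were -0.09 ± 0.23 and 0.06 ± 0.23 (edgeR, ± SE).

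Of the 39 members, 11 passed the expression filter and were tested: HOXA13, HOXB3, HOXB4, HOXB7, HOXB8, HOXB9, HOXC6, HOXC9, HOXD1, HOXD3 and HOXD4. Against CTRL 0 of the 11 were called at an adjusted p under 0.05 in SG1 and 0 in SG3, and 0 between SG1 and SG3, where the share over all 16786 genes was 0.0% in each comparison by edgeR's quasi-likelihood test. At an unadjusted p under 0.05, 1 member stood out in SG1 (4.59% of all genes), 1 in SG3 (1.19%) and 0 between SG1 and SG3 (4.74%). DESeq2 and limma-voom also called 0 members in each comparison, and over all genes DESeq2 called 3 in SG1, 4 in SG3 and 5 between SG1 and SG3, where edgeR called 0. The median log2 fold change of the 11 was 0.06 in SG1 and 0.06 in SG3, beside -0.0019 and -0.012 over all genes tested.

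HOXD1 was below CTRL in both depleted groups. Its raw counts were 30, 39 and 27 in CTRL, 20, 11 and 6 in SG1, and 12, 17 and 15 in SG3. In CPM this was 0.662, 0.790 and 0.556 in CTRL, 0.421, 0.225 and 0.144 in SG1 and 0.229, 0.362 and 0.362 in SG3, and neither depleted group overlapped CTRL. The log2 fold change was -1.33 ± 0.52 in SG1 (edgeR, unadjusted p = 0.0216, adjusted p = 0.913) and -1.08 ± 0.51 in SG3 (edgeR, unadjusted p = 0.0521, adjusted p = 1.00). All SG1 libraries were below all CTRL libraries for 7.21% of all genes and all SG3 libraries for 2.38%. Its antisense neighbour HAGLR was 10.6, 11.9 and 12.8 CPM in CTRL, 14.9, 10.5 and 11.6 CPM in SG1 and 13.1, 12.97 and 9.71 CPM in SG3, with overlapping groups.

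HOXB7, a trunk gene of the same cluster as HOXB9, was 0.507, 0.486 and 0.618 CPM in CTRL, 0.295, 0.328 and 0.575 CPM in SG1 and 0.343, 0.192 and 0.217 CPM in SG3. All SG3 libraries lay below CTRL, while the SG1 libraries overlapped it, and the log2 fold change in SG3 was -1.08 ± 0.50 (edgeR, unadjusted p = 0.0487, adjusted p = 1.00). HOXA13 was 3.62, 3.54 and 3.07 CPM in SG1, all above CTRL, as were 4.96% of all genes. It was 4.86, 2.13 and 1.08 CPM in SG3, a range that spanned CTRL, and no tested member was above CTRL in all SG3 libraries (2.28% of all genes). HOXC9 was 0.253, 0.246 and 0.192 CPM in SG1, all above the 0.114, 0.128 and 0 CPM of SG3, as were 6.26% of all genes, but both groups overlapped the 0.0882, 0.162 and 0.433 CPM of CTRL, and no tested member was below SG3 in all SG1 libraries (4.55% of all genes). HOXB3 (2.99, 2.23 and 2.995 CPM in SG1 and 2.61, 2.62 and 2.36 CPM in SG3) and HOXD3 (1.26, 1.39 and 1.96 and 1.68, 1.79 and 1.52 CPM) overlapped CTRL in both groups.

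The other tested members were low and overlapped between all 3 groups. HOXB4 was 0.331, 0.182 and 0.309 CPM in CTRL, 0.0632, 0.205 and 0.671 CPM in SG1 and 0.419, 0.234 and 0.554 CPM in SG3. HOXB8 was 0.485, 0.425 and 0.268 CPM in CTRL, 0.822, 0.389 and 0.479 CPM in SG1 and 0.190, 0.234 and 0.530 CPM in SG3. HOXC6 was 0.0441, 0.202 and 0.0412 CPM in CTRL, 0.211, 0.369 and 0.0958 CPM in SG1 and 0.0762, 0.256 and 0.0964 CPM in SG3. A library of HOXC6 thus rested on few counts, and its log2 fold change of 1.21 ± 0.82 in SG1 had one of the widest errors.

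**Figure D3:**
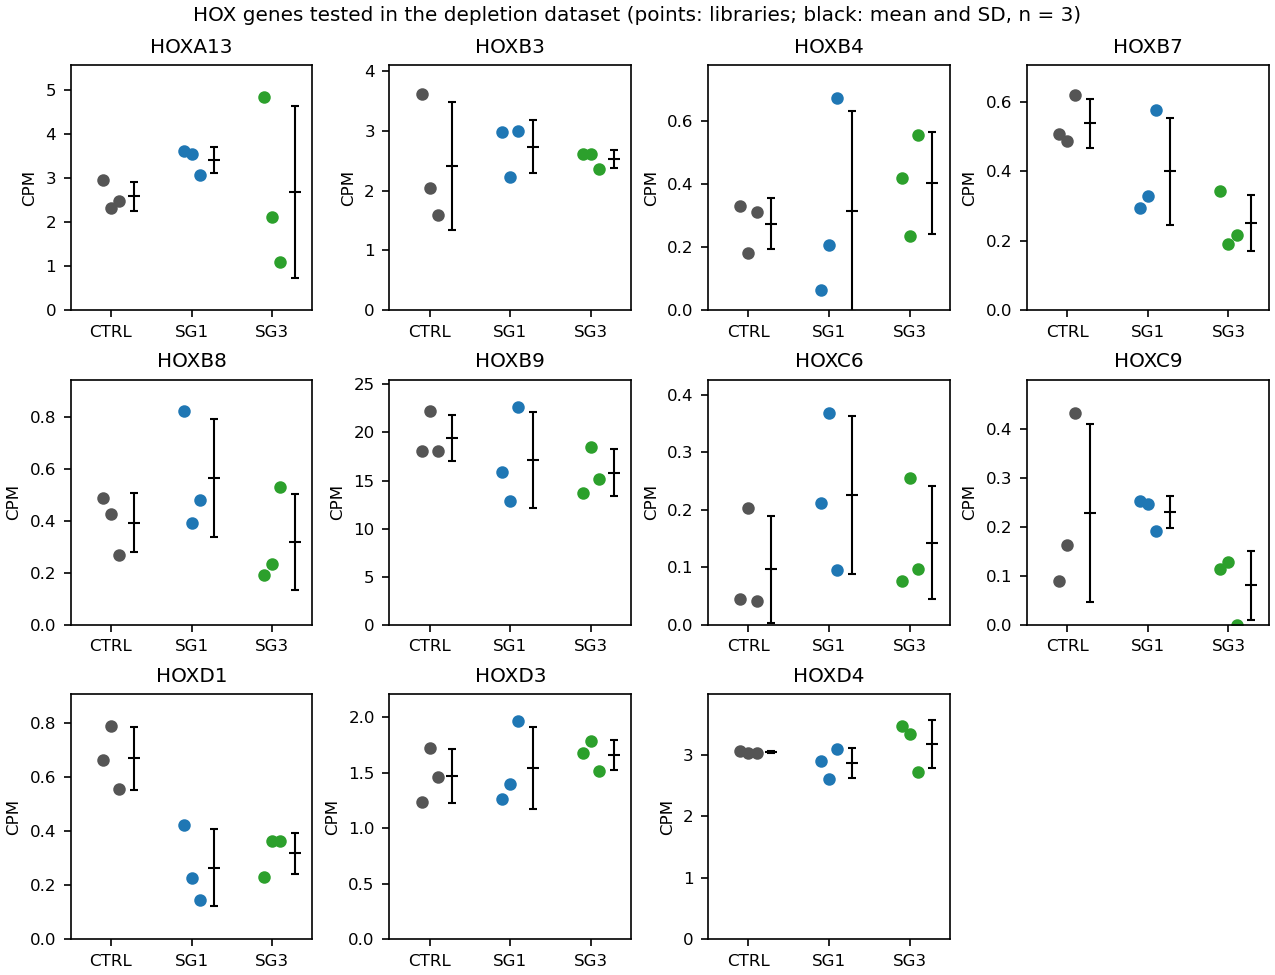
CPM (y axis, from 0) of the 11 tested HOX genes in each CTRL, SG1 and SG3 library (points), with mean and SD (black, n = 3), 1 panel per gene. HOXB9 overlaps between all 3 groups, whereas HOXD1 of both depleted groups lies below CTRL at under 1 CPM.

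**Figure D4:**
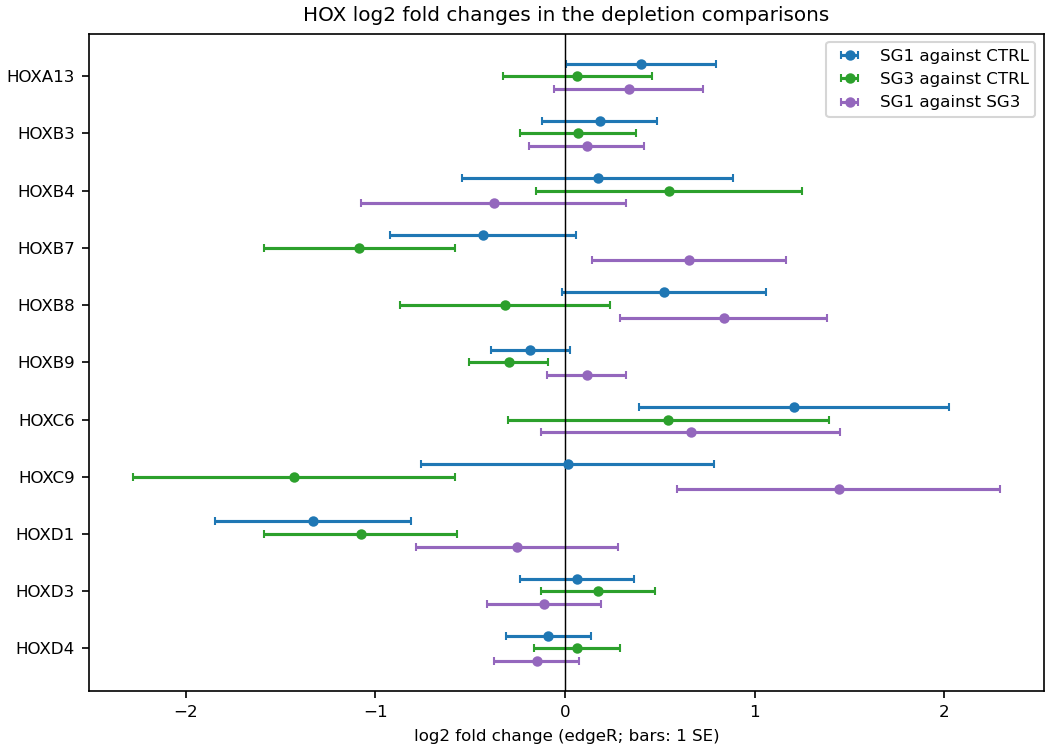
Log2 fold change (x axis, edgeR, bars 1 SE) of the 11 tested HOX genes (y axis) for SG1 against CTRL, SG3 against CTRL and SG1 against SG3. HOXD1 is on the negative side in SG1 (-1.33) and SG3 (-1.08), and the widest bars belong to HOXC6 and HOXC9, the tested members with the lowest CPM.

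By cluster, HOXB held 68.1 ± 5.34% of the summed per-kilobase level in SG1 and 66.3 ± 6.14% in SG3, and HOXD 23.1 ± 2.59% and 27.2 ± 2.01%. HOXA held 6.35 ± 1.78% in SG1 and 5.06 ± 3.73% in SG3, nearly all of it HOXA13. Paralog groups 9 to 13 held 66.5 ± 3.09% in SG1 and 64.5 ± 2.54% in SG3. Mitochondrially encoded mRNAs, a sign of RNA quality, summed to 9949 to 25102 CPM in CTRL, 15341 to 33801 CPM in SG1 and 9614 to 19597 CPM in SG3, and their part in these values was not tested.

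None of the lists around the HOX clusters had a called gene in the depletion comparisons by edgeR. These were the TALE cofactors (7 of 9 tested), the MLL complexes with linked factors (9 of 9), and Polycomb complexes PRC2 (11 of 11) and PRC1 (16 of 16). Others were the HOX cluster noncoding RNAs (2 of 18), the genes flanking the clusters (10 of 15), and the CDX factors and retinoic acid receptors (6 of 11). At an unadjusted p under 0.05, SG1 against CTRL had 1 gene each among PRC1 (PHC3), the flanking genes (SKAP2) and the receptors (RARB), and SG3 against CTRL had 1 flanking gene (TTLL6). Between SG1 and SG3 it was 1 PRC1 gene (CBX2) and 1 flanking gene (CBX5).

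In the KIF20A_OE libraries the HOX clusters were expressed along nearly their whole length. A mean of 1 FPM was reached by 35 of the 38 listed members, all but HOXC5, HOXD12 and HOXD1, against 12 in EV. The summed HOX level was 1837, 1987 and 1682 FPM, and in EV 56.2, 39.8 and 88.4 FPM. The second KIF20A_OE library, with the lowest KIF20A of the 3, had the highest sum, and a link between these values was not tested. HOXD1 alone had the opposite direction.

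By limma on log2(FPM + 1), 36 of the 38 listed members had a mean of at least 1 FPM and were tested, and 24 of the 36 had an EV mean under 1 FPM, so they passed the filter only through KIF20A_OE and were bound to appear higher there. HOXD1, with a KIF20A_OE mean of 0.293 FPM, passed only through EV and was bound to appear lower in KIF20A_OE. All 36 tested members were called, 35 higher and 1 lower, where 46.2% of the 15265 genes tested were called higher and 23.4% lower, so change itself was common (69.6% called, and 72.3% at an unadjusted p under 0.05). All KIF20A_OE libraries lay above all EV libraries for 35 of the 36 tested members (48.9% of all genes) and below for HOXD1 (25.2%). The median log2 fold change was 4.41 over the 36 members and 0.37 over all genes tested. With TMM factors applied the values were 4.19 and 0.04, a shift of all genes that left 36 members called and moved the split of all called genes from 66.4% to 51.0% higher. Ratios of fragments, with the 10 members at 0 in EV set at their lower bound, had a median of 71.2-fold (log2 of 6.15) over the 38 listed members, since log2(FPM + 1) understates the change of low genes.

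The HOXA cluster, of which only HOXA13 reached 1 FPM in EV, reached 1 FPM at all 11 genes. HOXA3, HOXA4 and HOXA11 had no fragment in any EV library. HOXA3, needed for the thymus and parathyroid, was at 30.2, 48.7 and 33.7 FPM in KIF20A_OE, at least 243-fold above the EV floor (3 fragments in each library, 0.155 FPM on average). HOXA4 was at 5.70, 12.98 and 7.87 FPM (at least 57.2-fold). HOXA11, a gene of the forearm and the uterus, was at 26.9, 46.1 and 34.7 FPM (at least 232-fold). In each of these 3 the second library was the highest.

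HOXA5, a gene of lung and airway development, was the highest of the cluster per kilobase, at 58.9 ± 11.5 FPM per kb. It was 0.333, 0.242 and 0.0588 FPM in EV and 78.3, 116 and 108 FPM in KIF20A_OE, a ratio of 463 (95% counting interval 271 to 871) from 13 EV fragments. Here and below a counting interval pools the fragments of a group and leaves out the spread between its libraries, so it is too narrow. Over all genes that spread exceeded counting error, with a chi-square per degree of freedom of 13.2 to 44.1 between libraries of a group in this dataset. HOXA13 was 1.52, 0.822 and 2.705 FPM in EV and 34.2, 70.8 and 59.2 FPM in KIF20A_OE, a ratio of 35.1 (95% counting interval 28.6 to 43.5; limma log2 fold change 4.38 ± 0.34 SE, adjusted p = 8.05e-06). HOXA9, best known from blood stem cells and leukaemia, had 1 fragment in EV and 59.3, 76.95 and 51.0 FPM in KIF20A_OE, a ratio of 3726 (95% counting interval 668 to 147199). HOXA10, which acts in the uterus, had 2 fragments in EV and 48.0, 79.8 and 73.8 FPM, a ratio of 2022 (95% counting interval 559 to 16706). HOXA6 had 1 fragment in EV and 15.8, 26.7 and 22.4 FPM, a ratio of 1306 (95% counting interval 234 to 51609).

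HOXA7 and HOXA2 were at 1.77 ± 0.442 and 2.95 ± 1.06 FPM per kb in KIF20A_OE, far under HOXA5. HOXA7 was 0.0476, 0.0967 and 0.118 FPM in EV and 5.20, 4.51 and 3.11 FPM in KIF20A_OE. HOXA2, which patterns the second pharyngeal arch, was 0.0476, 0.0967 and 0.0588 FPM in EV and 5.45, 10.2 and 6.05 FPM in KIF20A_OE. HOXA7 had its highest value in the first KIF20A_OE library and HOXA2 in the second.

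In the HOXB cluster all 9 listed genes were called higher (46.2% of all genes tested were), and HOXB9 led the whole family in KIF20A_OE as in CTRL. HOXB2, HOXB7, HOXB8 and HOXB13 had an EV mean under 1 FPM and passed the filter only through KIF20A_OE. These 4 were bound to appear higher there. HOXB9 was 18.8, 9.91 and 24.6 FPM in EV and 364, 429.8 and 296 FPM in KIF20A_OE, a ratio of 21.2 (95% counting interval 19.9 to 22.6; limma log2 fold change 4.35 ± 0.30 SE, adjusted p = 4.88e-06). Its share of the summed HOX level was nonetheless 19.7 ± 2.02% in KIF20A_OE, beside 28.7 ± 4.31% in EV. Per kilobase it stood at 141 ± 25.9 FPM per kb, and the next members, HOXD13 at 69.0 ± 4.99 and HOXA5 at 58.9 ± 11.5, were below it by more than their SDs.

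HOXB13, the posterior end of the cluster and a marker of the prostate and the distal gut, had no fragment in EV and was at 48.8, 54.8 and 49.0 FPM in KIF20A_OE (at least 329-fold). HOXB6 was 0.762, 0.435 and 4.17 FPM in EV and 107, 90.7 and 91.4 FPM in KIF20A_OE, and HOXB5 1.09, 0.0483 and 2.88 FPM and 47.3, 42.2 and 41.9 FPM. HOXB2, a hindbrain gene, was 0.0952, 0.0967 and 0.176 FPM in EV and 44.6, 41.3 and 40.3 FPM in KIF20A_OE. Its 3 KIF20A_OE libraries lay close together. HOXB3 was 3.43, 3.14 and 8.35 FPM in EV and 61.9, 73.3 and 59.6 FPM in KIF20A_OE. HOXB4, studied for the expansion of blood stem cells, was 1.24, 1.64 and 2.53 FPM in EV and 17.5, 15.9 and 13.3 FPM in KIF20A_OE, the smallest ratio of the cluster at 8.83 (95% counting interval 7.197 to 10.9). HOXB7 was 0.476, 0.387 and 1.35 FPM in EV and 32.7, 34.6 and 28.4 FPM in KIF20A_OE, and HOXB8 0.524, 0.145 and 1.12 FPM and 57.4, 46.4 and 39.8 FPM.

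In the HOXC cluster all 8 tested genes were called higher (46.2% of all genes tested were), and HOXC8 had the smallest ratio among them. HOXC4, HOXC10, HOXC11, HOXC12 and HOXC13 had an EV mean under 1 FPM and passed the filter only through KIF20A_OE. They were bound to appear higher there. HOXC8 was 1.52, 1.01 and 3.59 FPM in EV and 11.6, 7.98 and 9.42 FPM in KIF20A_OE, a ratio of 4.88 (95% counting interval 3.98 to 6.03; limma log2 fold change 1.89 ± 0.31 SE, adjusted p = 0.000752). HOXC6 was 1.76, 3.38 and 3.70 FPM in EV and 41.4, 33.4 and 34.4 FPM in KIF20A_OE, and HOXC9 1.43, 0.822 and 1.76 FPM and 30.2, 35.7 and 34.5 FPM. HOXC5 was not tested at its mean below 1 FPM: it was 0, 0.193 and 0.176 FPM in EV and 0.376, 0.811 and 0.482 FPM in KIF20A_OE. HOXC4, which shares exons with HOXC6, was 0.524, 0.193 and 0.647 FPM in EV and 55.2, 51.6 and 53.2 FPM in KIF20A_OE.

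The 5' end of the HOXC cluster was silent or nearly so in EV. HOXC10, a gene of lumbar motor neurons, was 0.190, 0 and 0.823 FPM in EV and 45.5, 49.3 and 48.5 FPM in KIF20A_OE. HOXC11 had no fragment in EV and was at 42.0, 34.5 and 37.8 FPM in KIF20A_OE (at least 246-fold). HOXC13, which controls hair and nail keratins, likewise had none and was at 15.6, 24.2 and 19.5 FPM (at least 128-fold). HOXC12, between these 2 genes, had none and was at 1.25, 2.21 and 4.87 FPM (at least 18.0-fold). Per kilobase this was 0.833 ± 0.562 FPM per kb, against 11.7 ± 1.15 for HOXC11 and 8.15 ± 1.77 for HOXC13.

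The HOXD cluster held the largest limma log2 fold change of the family, at its 5' end, and the opposite change at its 3' end. HOXD13, which patterns the digits, had no fragment in EV and was at 159, 163 and 142 FPM in KIF20A_OE, at least 999-fold above the floor (limma log2 fold change 7.28 ± 0.16 SE on the log2(FPM + 1) scale, adjusted p = 2.27e-08). HOXD11 had none either and was at 112, 82.3 and 82.4 FPM (at least 595-fold). HOXD10 was 0.190, 0.0967 and 0 FPM in EV and 116, 73.8 and 72.6 FPM in KIF20A_OE, and HOXD9 had 2 fragments in EV and 65.3, 38.0 and 34.9 FPM in KIF20A_OE. HOXD9, HOXD10, HOXD11 and HOXD13 passed the filter only through KIF20A_OE. They were bound to appear higher there, which the p-value of HOXD13 does not allow for. These 5' genes act in the limb bud, and the first KIF20A_OE library was the highest for HOXD9, HOXD10 and HOXD11, whereas the second was the highest for HOXA3, HOXA5, HOXA9, HOXA10, HOXA11 and HOXA13. HOXD12, between HOXD11 and HOXD13, was at 0.626, 0.270 and 0.857 FPM and was not tested, with 2 fragments in EV.

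Towards the 3' end of HOXD the ratios were smaller, and the last gene had the opposite direction. HOXD8 was 0.667, 0.677 and 0.412 FPM in EV and 19.5, 17.4 and 16.2 FPM in KIF20A_OE, a ratio of 29.5 (95% counting interval 21.0 to 42.5). HOXD8 too passed the filter only through KIF20A_OE and was bound to appear higher there. HOXD4 was 3.71, 5.07 and 4.82 FPM in EV and 12.02, 15.1 and 8.46 FPM in KIF20A_OE, a ratio of 2.67 (95% counting interval 2.31 to 3.08; limma log2 fold change 1.19 ± 0.24 SE, adjusted p = 0.00213; 0.88 with TMM factors). HOXD3 was 3.28, 3.24 and 1.999 FPM in EV and 10.5, 12.8 and 11.5 FPM in KIF20A_OE, a ratio of 4.05 (95% counting interval 3.42 to 4.82). HOXD1, the last gene, was 14.6, 8.07 and 21.9 FPM in EV and 0.376, 0.451 and 0.0535 FPM in KIF20A_OE, 48.2-fold (95% counting interval 29.9 to 83.1) lower by fragments (limma log2 fold change -3.53 ± 0.33 SE, adjusted p = 2.77e-05). HOXD1 passed the filter only through EV and was bound to appear lower in KIF20A_OE, which its p-value does not allow for. The HOXD order by paralog number, a rho of -0.89 in EV, was 0.63 in KIF20A_OE over the same 9 genes, given as a description with no p. In the other clusters rho was 0.33 and 0.42 for HOXA, -0.02 and 0.47 for HOXB, and -0.64 and -0.02 for HOXC in EV and KIF20A_OE.

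**Figure D5:**
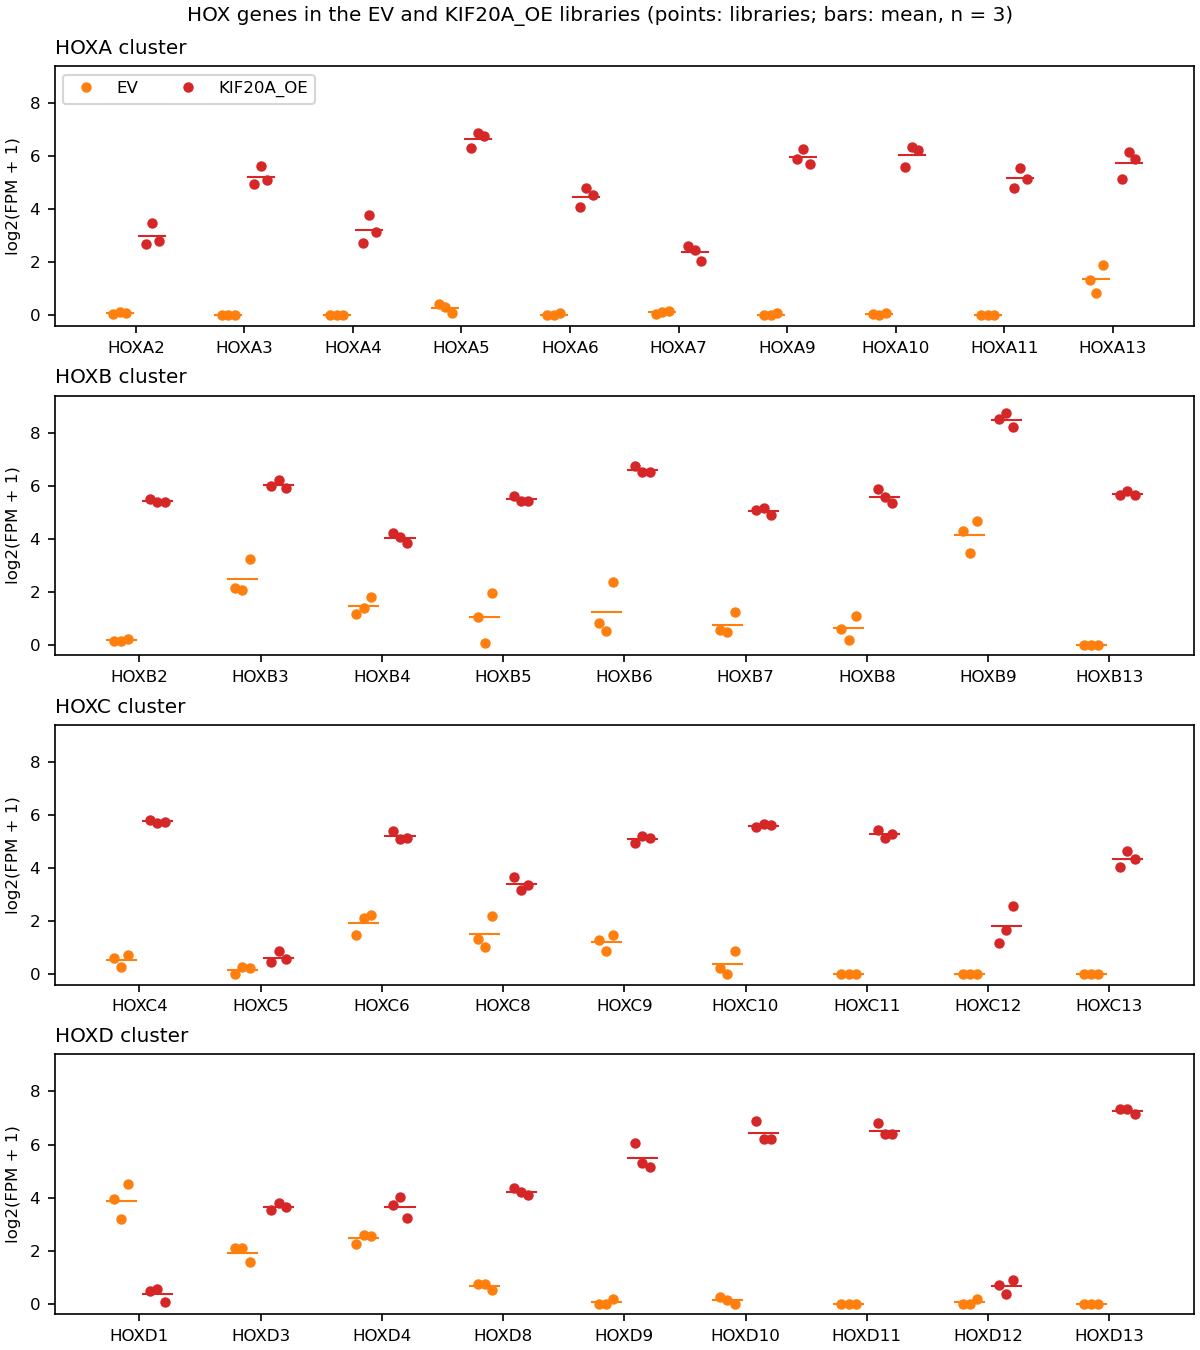
Level of HOX genes as log2(FPM + 1) (y axis) in the 3 EV (orange) and 3 KIF20A_OE (red) libraries (points, with the mean as a bar), 1 panel per cluster with genes in order of paralog number on the x axis. The red points stand above the orange ones in every panel except at HOXD1, where EV is at 8.07 to 21.9 FPM and KIF20A_OE at 0.0535 to 0.451 FPM.

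The division between the clusters also differed in its values. HOXA held 17.1, 25.6 and 24.3% of the summed per-kilobase level in KIF20A_OE and 2.31, 2.31 and 1.97% in EV. HOXD held 29.7, 22.7 and 24.2% in KIF20A_OE and 47.2, 52.9 and 41.8% in EV. HOXB, at 39.05 ± 1.70%, and HOXC, at 13.1 ± 1.12%, overlapped EV. Paralog groups 9 to 13 held 61.1 ± 1.47% and groups 1 to 3 held 6.40 ± 0.645%, beside 31.8 ± 4.49% and 35.3 ± 2.05% in EV. HOXD1 alone was 7.52 ± 3.51 of the summed 25.6 ± 10.1 FPM per kb in EV, and it counts in both the HOXD share and the share of groups 1 to 3.

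Noncoding RNAs are transcribed from within the clusters, often antisense to the HOX genes. Of 18 on the list 17 were listed and 12 tested, and limma called 11 higher and 1 lower, where 46.2% of all genes tested were called higher and 23.4% lower. All 11 had an EV mean under 1 FPM, so they passed the filter only through KIF20A_OE and were bound to appear higher there. HOTAIR, an antisense RNA between HOXC11 and HOXC12, had no fragment in EV and was at 24.98, 22.1 and 26.2 FPM in KIF20A_OE (at least 158-fold). HOTAIRM1, a noncoding RNA of the HOXA cluster, was 0, 0.0967 and 0.0588 FPM in EV and 31.6, 42.7 and 36.6 FPM in KIF20A_OE, and HOXA11-AS had none in EV and was at 21.6, 38.7 and 37.2 FPM. HAGLR, antisense to HOXD1, was the lower one, as HOXD1 was: 41.3, 32.5 and 50.6 FPM in EV and 5.64, 9.78 and 7.82 FPM in KIF20A_OE (limma log2 fold change -2.29 ± 0.24 SE, adjusted p = 4.58e-05). HOXA-AS2, HOXA-AS3, HOXA10-AS, HOXB-AS2, HOXB-AS3, HOXC-AS1, HOXC-AS2 and HOXD-AS2 were the others that rose (HOXB-AS2 was not tested with TMM factors), HOXD-AS2 from no fragment to 22.9, 13.4 and 13.1 FPM. Because reads of overlapping genes on opposite strands may not have been told apart, part of an antisense value can belong to its partner, and this was not tested.

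Other genes lie beside the clusters or in gaps within them. Of 15 flanking genes 10 were tested, and limma called 4 higher (CBX5, HNRNPA1, PRAC2 and SMUG1) and 1 lower (HIBADH), and with TMM factors also CALCOCO1 and SKAP2 lower. These counts are not above the share of all genes called higher (46.2%) or lower (23.4%), and PRAC2 passed the filter only through KIF20A_OE. MTX2, beyond the HOXD1 end of its cluster, was 41.2, 41.4 and 45.7 FPM in EV and 52.7, 49.3 and 54.4 FPM in KIF20A_OE (limma adjusted p = 0.0689). LNPK, beyond the HOXD13 end, was 90.0, 65.6 and 74.6 FPM in EV and 99.6, 73.3 and 88.0 FPM in KIF20A_OE (limma adjusted p = 0.352). PRAC2, between HOXB9 and HOXB13, had no fragment in EV and was at 7.64, 4.06 and 6.64 FPM in KIF20A_OE. The median log2 fold change of the 10 was 0.29, beside 0.37 over all genes tested, and -0.06 beside 0.04 with TMM factors.

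HOX proteins bind DNA with TALE cofactors, the PBX, MEIS and PKNOX homeodomain proteins. Of 9 TALE genes, all tested, limma called 6 higher and 0 lower, and with TMM factors 5 higher (without PKNOX1) and 2 lower (PBX2 and PBX3). Over all genes tested 46.2% were called higher and 23.4% lower, and with TMM factors 5169 higher and 4964 lower of 15205. MEIS3 and PKNOX2 passed the filter only through KIF20A_OE. MEIS1 was 3.999, 4.30 and 5.35 FPM in EV and 26.2, 34.4 and 23.9 FPM in KIF20A_OE, and MEIS2 11.6, 10.4 and 13.1 and 31.6, 37.1 and 30.1 FPM. MEIS3 was 0, 0.0967 and 0.294 FPM in EV and 13.7, 17.2 and 15.7 FPM in KIF20A_OE, and PKNOX2 0.0952, 0.0483 and 0.235 and 15.1, 14.1 and 12.96 FPM.

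The chromatin complexes that set HOX activity had median log2 fold changes of 0.81 (MLL and linked factors), 0.07 (PRC2) and 0.34 (PRC1), beside 0.37 over all genes tested. With TMM factors these were 0.45, -0.27 and -0.01 beside 0.04. Over all genes tested 46.2% were called higher and 23.4% lower, and with TMM factors 5169 higher and 4964 lower of 15205. Without TMM factors the PRC2 counts below lie under these shares and the PRC1 counts near them. Of 9 genes of the MLL complexes and factors linked to them, such as DOT1L, limma called 7 higher and 0 lower. These were ASH2L, DOT1L, KMT2B, MEN1, PSIP1, RBBP5 and WDR5. With TMM factors it called 5 higher (without KMT2B and WDR5) and 1 lower (KMT2A). MEN1, the menin subunit, was 68.6, 82.9 and 79.9 FPM in EV and 154, 175 and 163 FPM in KIF20A_OE. Of 11 PRC2 genes 4 were called higher (AEBP2, MTF2, RBBP4 and RBBP7) and 2 lower (PHF1 and PHF19), and with TMM factors also JARID2 and SUZ12 lower. EZH2, the methyltransferase of PRC2, was 30.9, 39.1 and 49.3 FPM in EV and 45.9, 77.1 and 40.2 FPM in KIF20A_OE and did not pass. Of 16 PRC1 genes 7 were called higher (CBX2, PHC1 and RNF2 among them) and 4 lower (CBX7, PCGF2, PCGF5 and PHC2), and with TMM factors also PHC3 lower. CBX2, a reader of the Polycomb mark, was 13.7, 26.2 and 23.2 FPM in EV and 129, 232 and 135 FPM in KIF20A_OE. The H3K27 demethylases KDM6A and KDM6B were both called higher, KDM6B only without TMM factors.

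Among upstream regulators, CDX2, a homeobox gene of the posterior gut that activates HOX genes, had no fragment in EV and no count in CTRL, SG1 or SG3, and was at 38.4, 38.7 and 37.7 FPM in KIF20A_OE (at least 247-fold). Of the 11 CDX and retinoic acid genes 9 were listed and 8 tested, and limma called 3 higher (CDX2, RARB and RXRG) and 3 lower (RARA, RXRA and RXRB), and with TMM factors also CYP26B1 lower, where 46.2% of all genes tested were called higher and 23.4% lower. CDX2 and RXRG were listed at 0 in EV and passed the filter only through KIF20A_OE. RARB, a retinoic acid receptor that is itself a retinoic acid target, was 0.905, 3.62 and 0.941 FPM in EV and 15.6, 39.5 and 15.4 FPM in KIF20A_OE. RARA was 69.0, 46.6 and 61.1 FPM in EV and 21.7, 26.7 and 25.001 FPM in KIF20A_OE.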

How the data were processed

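RNA from 15 libraries in 5 groups of 3 was measured. The authors deposited raw counts per gene for CTRL, SG1 and SG3, and values with the same total in each column for EV and KIF20A_OE, which the labels call FPKM and which were read as FPM (fragments scaled to one total, a CPM unit with no length division). Trim Galore 0.6.4, STAR 2.7.3a, featureCounts of Subread 1.6.3, limma 3.50.3 and the build hg38 are named by the submitters' processing notes, with no roles given. Even values were in excess among counts of 10 to 50 in the depletion table (62.9 to 68.0%), so counting error may be larger than the counts imply.

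Counts were tested with edgeR 4.0.16 (quasi-likelihood, TMM, expression filter, all 9 depletion libraries in 1 fit), and log2(FPM + 1) with limma 3.58.1 where the mean over the 6 libraries reached 1 FPM, in R 4.3.3. P-values were adjusted by Benjamini-Hochberg over all genes tested, with a threshold of 0.05. FPM values gave back whole fragments for every value (tolerance 0.001), and edgeR on those fragments called 10889 of 17078 genes. Levels per kilobase used the union of exons in GENCODE 29. DESeq2 1.42.0, limma-voom, other scalings, filters and pseudocounts, halved counts and each library left out were alternatives. The procedures were tested on simulated data. The HOX members and the lists were chosen with earlier results of these data known. Every member with a mean of at least 1 CPM or FPM in any group was named with its values. A few genes of the family and the lists are counted in the totals but not reported here. Members above 3 counts in any library were named by range, and of the lists every called gene or up to 3 genes of highest level.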

Additional observations from a re-analysis of the deposited data

Results flagged for a closer look

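A readthrough gene that joins HOXA10 and HOXA9, which is no member of the 39, was at 0 FPM in all 3 EV libraries and at 3.88, 5.73 and 6.64 FPM in the KIF20A_OE libraries, a mean of 5.42 FPM. It appears here because it is a signal outside the HOX members that exceeds its level in EV. Its exons overlap those of HOXA9 and HOXA10, so how fragments were divided between the 3 genes was not tested.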

How the results depend on the processing

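No HOX member passed the adjusted threshold in a depletion comparison under any alternative run. Every tested member was called in KIF20A_OE against EV: 36 of 36, 35 of 35 without KIF20A_OE replicate 3 (35 to 36 leaving out 1 library), and 38 of 38 with a minimum of 0.1 FPM or no low-value filter. The share over all genes there was 69.6% in the main run, 13172 of 21983 at 0.1 FPM and 13254 of 23792 without the filter. Of the 36 members, 24 passed the filter only through KIF20A_OE and were bound to appear higher there. HOXD1 passed it only through EV and was bound to appear lower in KIF20A_OE. Over all genes edgeR called 0 in each depletion comparison, DESeq2 3 (SG1), 4 (SG3) and 5 (SG1 against SG3), and edgeR without a low-count filter 91, 8 and 77. Among called genes 66.4% were higher in KIF20A_OE, 51.0% with TMM factors and 52.1% with edgeR on recovered fragments. HOXB4 in SG1 against CTRL was 0.17 on the log2 scale, -0.35 with limma-voom and -0.053 with the replicate block. HOXA13 in SG3 against CTRL was 0.07, -0.14 with limma-voom and -0.10 with the replicate block. Leaving out 1 library turned uncalled log2 fold changes: HOXA13 ran from -0.038 to 1.05 (SG1 against SG3) and -0.65 to 0.42 (SG3 against CTRL), and HOXB3 from -0.066 to 0.57 (SG1 against CTRL) and -0.17 to 0.47 (SG3 against CTRL). HOXB4 ran from -1.01 to 0.64 (SG1 against CTRL) and -1.56 to 0.10 (SG1 against SG3), HOXB9 from -0.14 to 0.26 and HOXD1 from -0.77 to 0.034 (both SG1 against SG3). HOXC6 ran from -0.17 to 1.72 (SG3 against CTRL), HOXC9 from -0.38 to 0.84 and HOXD3 from -0.15 to 0.20 (both SG1 against CTRL). Without division by length the HOXB share was 73.8% in CTRL and 41.2% in KIF20A_OE, and the HOXD share 38.7% in EV. With the longest transcript as length, levels per kilobase moved by at least their SD for 2 members in CTRL, 2 in EV and 16 in KIF20A_OE. They stayed within it for 3, 10 and 19. The order of members of close level thus depends on the length used. At 2 FPM rather than 1 FPM 7 members counted as expressed in EV rather than 12, and 10 without EV replicate 3. The cause was not tested. Deviations of same-numbered libraries from their group means correlated weakly, at -0.11 to 0.16 in the depletion dataset and 0.01 to 0.06 in the other. In the overexpression dataset each library still correlated best with its own number in 3 of 3 pairs, a hint from the data that the numbers may mark pairs. With the replicate block 0, 0 and 0 members were called in the depletion comparisons and 36 in KIF20A_OE against EV, with 10530 genes in all there rather than 10621.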
